A study of Mus musculus with 6 samples.

Results

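The 10 genes described here are the acute phase proteins Saa1, Saa2, Saa4, Orm1, Orm2, Hp, Hpx and Lcn2, with Stat3 and Socs3 of the IL6 pathway. They were chosen by symbol, and all 10 are among the 16638 genes of the deposited table. RNA was measured in the livers of obese mice, 3 given HA and 3 given PBS (phosphate-buffered saline). HA stands for hippuric acid, which the liver makes by joining glycine to benzoic acid. Its dose was 60 mg/kg by intraperitoneal injection, given over 5 weeks with 2 injections each week. The schedule of PBS, the strain, age and sex of the mice and the way they were made obese are not stated in the sources used here. Separate animals are not named in the labels, so the p-values reflect the spread of these 6 samples, part of which may be technical.

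The acute phase response is the change in plasma proteins that hepatocytes make during inflammation. IL6 and its relatives bind receptors that share the subunit gp130, JAK kinases then phosphorylate STAT3, and STAT3 enters the nucleus together with factors such as C/EBP beta and, after IL1, NF-kB. Socs3 is one of the genes that STAT3 switches on, and its product blocks the receptor in turn. Serum amyloid A, orosomucoid, haptoglobin, hemopexin and lipocalin 2 are classic products of this response in mouse liver, and all are secreted into blood.

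The libraries held between 37921444 and 39908844 fragments, as recovered from the FPKM values, which are fragments corrected for the length of a gene and the total of its library. Fragments behind a value of the 10 genes ran from 184, for Socs3 in PBS replicate 2, to 400191, for Hpx in HA replicate 1. All 9 hepatocyte markers were measured in every library. The 8 markers of adrenal gland and skeletal muscle summed to 89.2 FPKM in PBS replicate 1 and to between 0.512 and 1.09 FPKM in the other libraries. Of the 10745 genes tested with limma on log2(FPKM + 1), at a Benjamini-Hochberg adjusted p under 0.05, 31 were called higher with HA and 55 lower. These counts were 3 and 4 without PBS replicate 1, 1 and 7 without PBS replicate 2, and 5 and 6 without PBS replicate 3. With all libraries, the split of 31 and 55 moved to 36 and 32 after centring each library on its median. It moved to 33 and 24 after rescaling to the fragments outside albumin. Fold changes below are of these log2 values, HA over PBS, unless said to be of means in FPKM.

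Sequences just before the start of 5 of these genes are printed first. Those of the inducible pair Saa1 and Saa2 are near-identical, and known acute phase factors bind close to such starts. The windows are RefSeq's 250 bases upstream of the annotated start in GRCm38.p6. The authors aligned to GRCm39, so the positions do not apply to their files. Letters are 5′ to 3′ on the strand of the gene. Capitals mark TTGCNNAA, a pattern of C/EBP sites, in Saa1, Saa2, Hpx and Lcn2, and TTCNNNGAA, a pattern of STAT sites, in Socs3.
Saa1 (chr7:46742981-46743230, minus strand): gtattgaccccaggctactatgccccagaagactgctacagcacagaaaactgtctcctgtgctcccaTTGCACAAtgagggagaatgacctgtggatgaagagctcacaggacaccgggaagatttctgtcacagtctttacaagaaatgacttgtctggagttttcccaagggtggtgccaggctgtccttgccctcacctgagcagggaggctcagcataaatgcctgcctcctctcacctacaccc
Saa2 (chr7:46751583-46751832, plus strand): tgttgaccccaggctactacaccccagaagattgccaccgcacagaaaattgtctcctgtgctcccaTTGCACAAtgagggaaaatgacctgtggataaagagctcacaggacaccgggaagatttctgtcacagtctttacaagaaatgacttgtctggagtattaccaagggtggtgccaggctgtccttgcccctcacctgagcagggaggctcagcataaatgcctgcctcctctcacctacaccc
Hpx (chr7:105600117-105600366, minus strand): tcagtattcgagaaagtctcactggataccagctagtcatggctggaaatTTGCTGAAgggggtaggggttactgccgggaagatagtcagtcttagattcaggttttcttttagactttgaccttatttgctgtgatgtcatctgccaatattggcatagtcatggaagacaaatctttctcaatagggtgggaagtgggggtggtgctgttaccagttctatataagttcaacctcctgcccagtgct
Lcn2 (chr2:32387740-32387989, minus strand): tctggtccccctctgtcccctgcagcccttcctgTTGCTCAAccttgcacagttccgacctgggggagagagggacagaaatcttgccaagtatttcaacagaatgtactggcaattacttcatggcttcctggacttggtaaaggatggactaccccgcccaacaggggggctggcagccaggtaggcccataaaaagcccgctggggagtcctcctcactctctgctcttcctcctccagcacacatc
Socs3 (chr11:117969367-117969616, minus strand): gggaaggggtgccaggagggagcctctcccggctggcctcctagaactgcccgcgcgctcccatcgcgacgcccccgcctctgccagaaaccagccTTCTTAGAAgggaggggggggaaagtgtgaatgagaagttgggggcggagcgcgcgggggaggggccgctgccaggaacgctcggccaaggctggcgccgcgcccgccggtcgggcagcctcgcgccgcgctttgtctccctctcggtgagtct

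The Saa1 and Saa2 windows were identical at 238 of 251 aligned columns (94.8%), and both held TTGCACAA, 182 to 175 bases before the start in Saa1 and 183 to 176 in Saa2. Both strands were searched with 6 patterns, chosen with these sequences in view. Windows were at hand for 8 of the 10 genes, not for Orm1 and Hp. TTGCNNAA was present in 6 of the 8 (Saa1, Saa2, Saa4, Orm2, Hpx and Lcn2) and in 9.56% of all 32851 windows. The looser C/EBP pattern TTNNGNAA, whose matches can be the same bases, was present in 7 of the 8 and in 36.8% of all windows. TTCNNNGAA was found in Socs3 alone of the 8, 154 to 146 bases before the start, and in 7.02% of all windows. NF-kB was searched as GGG followed by TTTCC with any 2 bases between (1.41% of all windows) and as GGGAA joined to TTCCC (0.0335%), and the glucocorticoid response element as AGAACA followed by TGTTCT with any 3 bases between (0.00913%). None of these last 3 patterns was in any of the 8 windows.

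The log2 fold change was positive for 9 of the 10 genes, all but Saa4, as it was for 37.2% of all genes tested, and 0 of the 10 passed limma's threshold over all genes. Among all genes tested, 0.289% were called higher and 0.512% lower. At an unadjusted p under 0.05 there were 2 of 10, Hpx and Lcn2, against 17.7% of all genes tested, and voom on recovered fragments also called 0 of the 10. The HA and PBS livers did not overlap for the same 2 genes, both higher with HA, and 6.47% of all genes tested were higher with HA without overlap. The median log2 fold change of the 10 was 0.66, beside -0.06 for all genes tested. It was 0.23 without HA replicate 1, 1.10 without HA replicate 2 and 0.43 without PBS replicate 3. Together the 10 genes took 1.88%, 1.12% and 1.32% of the fragments in HA replicates 1 to 3, against 0.931%, 0.890% and 0.752% in PBS replicates 1 to 3. The 95% Wilson intervals of these shares reach at most 0.00425 percentage points to either side. They cover counting error only, with fragments taken as independent draws within a library, and leave out the spread between livers. Fragments are not independent molecules, so the intervals may be too narrow even for counting error. Hpx and Hp made up most of each share. Hpx alone took 1.02%, 0.660% and 0.690% in HA replicates 1 to 3, against 0.422%, 0.415% and 0.342% in PBS replicates 1 to 3. For Hp the shares were 0.618%, 0.359% and 0.478% with HA, against 0.372%, 0.360% and 0.305% with PBS. In liver tissue, more cells of a type and more RNA per cell cannot be told apart.

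**Figure D1:**
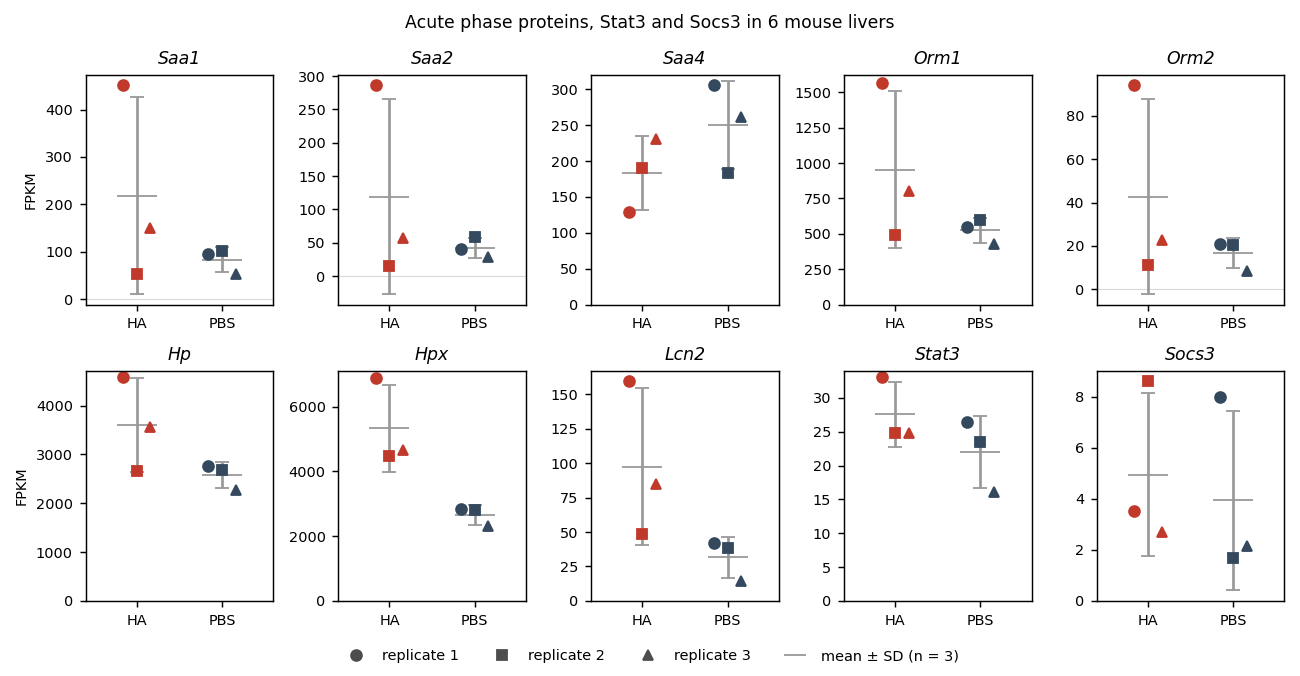
FPKM of the 10 genes (vertical axes, each with its own scale) in 3 HA livers (red, left) and 3 PBS livers (dark, right); the symbol gives the replicate and the grey bars mean ± SD (n = 3). HA replicate 1 (circle) is the highest of the 6 livers for 8 genes, and the groups are apart for Hpx and Lcn2.

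Hpx and Hp were the most abundant of the set, with means over the 6 libraries of 3993 and 3087 FPKM, ranks 17 and 22 in the table. Orm1 followed at 739 FPKM, Saa4 at 217, Saa1 at 151, Saa2 at 80.8, Lcn2 at 64.5, Orm2 at 29.7, Stat3 at 24.8 and Socs3 at 4.44 FPKM. HA replicate 1 weighs on this order, since Stat3 was above Orm2 in the other 5 libraries. Saa1 exceeded Saa4 in the HA mean, at 219 against 183 FPKM, and not in the PBS mean, at 83.1 against 250 FPKM. The ranges over libraries of Hpx and Hp overlapped, as did those of each neighbouring pair from Saa4 down to Stat3. The ranges of Hp and Orm1, Orm1 and Saa4, and Stat3 and Socs3 did not overlap.

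Serum amyloid A is an apolipoprotein of high density lipoprotein during inflammation. Saa1 and Saa2 encode the inducible forms and Saa4 the constitutive form. Saa1 had 452, 52.8 and 151 FPKM in HA replicates 1 to 3, against 94.7, 102 and 53.0 FPKM in PBS replicates 1 to 3. HA replicate 1 stood above every other liver and HA replicate 2 was the lowest of all 6, so the groups overlapped. The means were 219 ± 208 FPKM with HA and 83.1 ± 26.3 FPKM with PBS (SD, n = 3 each), with a log2 fold change of 0.93 (SE 0.69 and limma adjusted p = 0.507). Leaving out HA replicate 1 gave 0.16, and leaving out HA replicate 2 gave 1.70. Saa2 had 287, 14.8 and 56.5 FPKM in the HA livers, against 39.96, 58.1 and 28.7 FPKM in the PBS livers. Its HA values spanned 19.4-fold and its PBS values 2.02-fold. The log2 fold change of Saa2 was 0.62 (SE 0.92 and limma adjusted p = 0.756), with -0.47 without HA replicate 1, 1.63 without HA replicate 2 and 0.38 without PBS replicate 3.

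Similar copies can share fragments, and how the authors split them is not stated. The longest transcripts of Saa1 and Saa2 were identical at 572 of 655 aligned columns (87.3%). Of the 50-base stretches of the GENCODE M21 coding transcript of Saa1, 13.2% also occur in those of Saa2, and 0% in Saa4. Summed, Saa1 and Saa2 gave 738, 67.6 and 208 FPKM in HA replicates 1 to 3, against 135, 160 and 81.8 FPKM in PBS replicates 1 to 3. The sum depends less on how shared fragments were divided, though not if they were dropped or counted for both genes. It also had HA replicate 1 highest and HA replicate 2 lowest of the 6. Its log2 fold change was 0.85 (SE 0.76 and limma adjusted p = 0.588). Leaving out HA replicate 1 took this fold change to -0.026, and leaving out HA replicate 2 to 1.69. Saa1 exceeded Saa2 in every liver, with ratios of 1.58, 3.58 and 2.67 with HA and 2.37, 1.75 and 1.85 with PBS.

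Saa4 ran the other way. It had 128, 190 and 231 FPKM in HA livers, against 305, 184 and 261 FPKM in PBS livers, so HA replicate 1, the highest liver for Saa1 and Saa2, was the lowest for Saa4. Its log2 fold change was -0.46 (SE 0.26 and limma adjusted p = 0.391), and the groups overlapped. It was -0.22 without HA replicate 1 and -0.30 without PBS replicate 1. Saa3, which in mouse is made largely outside hepatocytes and is no member of the set, had 5.74, 18.9 and 7.50 FPKM in HA livers, against 7.91, 11.5 and 6.75 FPKM in PBS livers. Its highest liver was HA replicate 2, the liver in which Saa1 and Saa2 were lowest.

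Orosomucoid, or alpha-1-acid glycoprotein, carries basic drugs and lipophilic ligands in plasma. Orm1 had 1567, 491 and 803 FPKM in HA replicates 1 to 3, against 547, 598 and 429 FPKM in PBS replicates 1 to 3. HA replicates 1 and 3 were above all PBS livers, and HA replicate 2 lay below PBS replicates 1 and 2. The log2 fold change was 0.71 (SE 0.38 and limma adjusted p = 0.375), with 0.27 without HA replicate 1 and 1.11 without HA replicate 2. Orm2 had 94.2, 11.1 and 22.9 FPKM in HA livers, against 20.9, 20.4 and 8.55 FPKM in PBS livers, with the same order of HA livers. Its log2 fold change was 0.87 (SE 0.71 and limma adjusted p = 0.551), with 0.04 without HA replicate 1, 1.53 without HA replicate 2 and 0.48 without PBS replicate 3. The copies share 20.4% of their 50-base stretches with each other, and their sum had a log2 fold change of 0.72 (SE 0.40 and limma adjusted p = 0.382), or 0.26 without HA replicate 1 and 1.13 without HA replicate 2. Orm3, the remaining copy in mouse, had 4.06, 1.37 and 2.64 FPKM in HA livers, against 4.71, 4.33 and 2.28 FPKM in PBS livers (limma adjusted p = 0.529).

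Hemopexin (Hpx) binds free haem in plasma and delivers it to the liver. It had 6872, 4459 and 4665 FPKM in HA replicates 1 to 3, against 2848, 2801 and 2310 FPKM in PBS replicates 1 to 3. Every HA liver was above every PBS liver. The means were 5332 ± 1337 FPKM with HA and 2653 ± 298 FPKM with PBS (SD, n = 3 each), a ratio of 2.01, and 1.72 without HA replicate 1. The log2 fold change was 0.98 (SE 0.19), the most precise of the set relative to its size, and it missed the threshold (limma adjusted p = 0.0700). Its adjusted p ran from 0.0577 to 0.223 over the alternatives, and the fold change stayed between 0.79 and 1.10.

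Haptoglobin (Hp) binds free haemoglobin and takes it to macrophages. It had 4592, 2669 and 3553 FPKM in HA livers, against 2764, 2677 and 2268 FPKM in PBS livers. HA replicate 2 lay just below PBS replicates 1 and 2, so the groups overlapped, with a log2 fold change of 0.46 (SE 0.20 and limma adjusted p = 0.295), or 0.27 without HA replicate 1. The ratio of Hpx to Hp within a liver was 1.496, 1.67 and 1.31 with HA, against 1.03, 1.05 and 1.02 with PBS. The groups were apart in this ratio (exact permutation test, two-sided p = 0.1, the smallest that 3 against 3 can give). This pair was picked after its values were seen, and the ratios of Saa1 to Saa2 and Orm1 to Orm2 had p = 0.4 and p = 0.8 in the same exact test. The 6 red cell markers summed to 699, 1319 and 1232 FPKM in HA livers, against 227, 329 and 335 FPKM in PBS livers. Of the 5 tested, the globin genes Hbb-bt, Hba-a1 and Hba-a2, whose near-identical copies can share fragments, rose, a call that none kept without HA replicate 3 or any PBS library. Hbb-bs was higher without overlap and did not pass (limma adjusted p = 0.0516), and Alas2, the red cell enzyme that starts haem synthesis, had 34.4, 36.6 and 34.2 FPKM in HA livers, against 39.9, 45.8 and 36.8 FPKM in PBS livers (limma adjusted p = 0.364). Of the 5, 4 were higher without overlap and 1 lower, beside 6.47% and 19.2% of all genes tested. Among all genes tested, 0.289% were called higher. The part of the red cell markers in the levels of Hpx and Hp was not tested.

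Lipocalin 2 (Lcn2) binds iron-loaded bacterial siderophores and is made by hepatocytes and by neutrophils. It had 160, 48.2 and 84.6 FPKM in HA replicates 1 to 3, against 41.8, 38.7 and 14.4 FPKM in PBS replicates 1 to 3. The groups did not overlap, though HA replicate 2 was close to PBS replicate 1. Its means were 97.5 ± 56.8 FPKM with HA and 31.6 ± 14.99 FPKM with PBS (SD, n = 3 each), a ratio of 3.08, the largest of the 10 genes. The log2 fold change was 1.56 (SE 0.51 and limma adjusted p = 0.181), and 1.13 without HA replicate 1 or 1.09 without PBS replicate 3. The 12 neutrophil markers summed to 6.60, 6.17 and 9.93 FPKM in HA livers, against 3.69, 2.18 and 1.65 FPKM in PBS livers, also without overlap. S100a8 and S100a9 made up most of the sum, were higher without overlap and did not pass (limma adjusted p = 0.0801 and 0.107). Among all genes tested, 6.47% were higher without overlap and 0.289% were called higher. The other 10 neutrophil markers were below the filter for testing. Of these Ngp and Ltf were at 0 in all PBS livers and above 0 in all HA livers, Camp and Mpo were at 0 in all PBS livers and in 1 HA liver each, and Elane, Retnlg, Cxcr2, Csf3r, Mmp8 and Mmp9 overlapped. The part of neutrophils in the Lcn2 difference was not tested.

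Stat3 encodes the transcription factor that gp130 receptors activate. It had 33.1, 24.8 and 24.8 FPKM in HA livers, against 26.5, 23.5 and 16.0 FPKM in PBS livers. The groups overlapped, with a log2 fold change of 0.33 (SE 0.20 and limma adjusted p = 0.425), with 0.20 without HA replicate 1 and 0.13 without PBS replicate 3. Socs3 had 3.52, 8.59 and 2.71 FPKM in HA livers, against 7.98, 1.69 and 2.15 FPKM in PBS livers. HA replicate 2 and PBS replicate 1 were high and the other 4 livers low. Its log2 fold change was 0.36 (SE 0.51 and limma adjusted p = 0.744), and ran from -0.048 without HA replicate 2 to 0.90 without PBS replicate 1. In the HA livers Socs3 was highest where Saa1, Saa2, Orm1, Orm2, Hp, Hpx and Lcn2 were lowest. RNA levels do not show whether STAT3 was phosphorylated.

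The HA livers stood in the same order for 7 of the 8 secreted proteins. HA replicate 1 was the highest of the 6 libraries for 8 of the 10 genes, while that held for 14.8% of all genes tested. The order HA replicate 1, then 3, then 2 was found in 7 of the 10, Saa1, Saa2, Orm1, Orm2, Hp, Hpx and Lcn2, and in 18.1% of all genes tested. PBS replicate 3 was the lowest library for 6 of the 10 and for 18.5% of all genes tested. The ratio of HA replicate 1 to HA replicate 2 was 19.4 for Saa2, 8.55 for Saa1, 8.48 for Orm2, 3.31 for Lcn2, 3.19 for Orm1, 1.72 for Hp and 1.54 for Hpx. It was 0.676 for Saa4 and 0.409 for Socs3. Averaged over HA replicates 2 and 3, Lcn2 was 2.10 times and Hpx 1.72 times the PBS mean, while Saa2 was 0.843 times and Orm2 1.02 times.

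**Figure D2:**
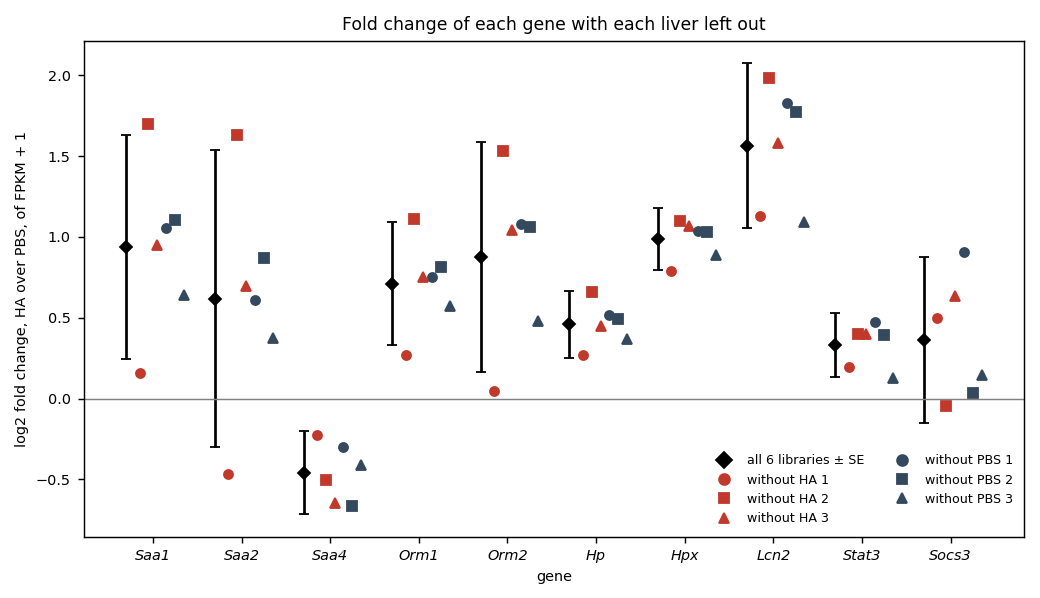
Log2 fold change of HA over PBS (vertical axis, FPKM + 1) of each gene from all 6 livers (black diamond ± SE) and with each liver left out in turn (red symbols for HA livers, dark symbols for PBS livers). Without HA replicate 1 (red circle) the value of Saa2 falls below 0 and that of Orm2 is 0.04, while Hpx and Lcn2 stay at 0.79 or more in every fit.

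Genes were ranked by how closely their values followed Saa1 over the 6 libraries, by the mean absolute difference between log2(FPKM + 1) profiles, each centred on its own mean. Orm2 was at 0.17, Orm1 at 0.35 and Saa2 at 0.35. Outside the set the closest named genes were Mvd at 0.29, Dhcr7 at 0.30, Pmvk at 0.36, Lss at 0.36 and Rdh11 at 0.37. Mvd had 11.04, 0.758 and 2.65 FPKM in HA livers, against 0.960, 1.27 and 1.20 FPKM in PBS livers. HA replicate 1 was far above the rest and HA replicate 2 the lowest, the pattern of Saa1 by which Mvd was picked. Closest to Lcn2 were Fkbp11 at 0.28, Cib3 at 0.30, Slc41a2 at 0.31, A2ml1 at 0.36 and Cyb561 at 0.39. Fkbp11 had 14.1, 5.81 and 6.86 FPKM in HA livers, against 2.92, 3.31 and 1.49 FPKM in PBS livers, without overlap (limma adjusted p = 0.0942). All 10 neighbours were picked by their values in the same 6 libraries. Their group differences therefore follow in part from the choice and are no separate support. Without HA replicate 1 the log2 fold changes of the 5 genes closest to Saa1 ran from -0.041 for Rdh11 to 0.37 for Dhcr7, against 0.66 for Pmvk to 1.03 for Dhcr7 with all libraries, and that of Cyb561 was 0.58, against 0.92. None of these 10 neighbours passed over all genes, and without HA replicate 2 A2ml1 did (limma adjusted p = 0.0240).

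Other acute phase genes were taken from a list of 28, of which 27 passed the filter and A2m did not. Fgl1, Mt2 and Itih3 rose, Hamp fell and 23 did not pass, beside 0.289% of all genes tested called higher and 0.512% lower. Of the 27, 10 were higher with HA without overlap and 2 lower, beside 6.47% and 19.2% of all genes tested. The median log2 fold change was 0.51. Fgl1, a liver-secreted fibrinogen-like protein, had 1026, 611 and 969 FPKM in HA livers, against 339, 323 and 243 FPKM in PBS livers (a ratio of means of 2.88, limma adjusted p = 0.0424). Mt2, a zinc-binding metallothionein that IL6 and glucocorticoids induce, had 209, 377 and 285 FPKM in HA livers, against 98.8, 83.5 and 52.4 FPKM in PBS livers (limma adjusted p = 0.0424), with HA replicate 2 the highest. Itih3, a plasma protein that binds hyaluronan, averaged 507 ± 53.5 FPKM with HA and 243 ± 49.3 FPKM with PBS (SD, n = 3 each; limma adjusted p = 0.0453). Hamp, the iron hormone hepcidin and itself a STAT3 target, had 1.69, 13.2 and 7.13 FPKM in HA livers, against 1747, 1127 and 1227 FPKM in PBS livers (log2 fold change -7.63, SE 0.55, limma adjusted p = 0.00608). The fall of Hamp held with each library left out, though its copy Hamp2 can share fragments with it. The calls of Fgl1, Mt2 and Itih3 were lost without HA replicate 3 or any PBS library (adjusted p from 0.0860 to 0.168), and also without HA replicate 1 for Fgl1 (0.0868) and Itih3 (0.106) and without HA replicate 2 for Mt2 (0.0517).

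Apcs, serum amyloid P and the main acute phase pentraxin of mice, followed the order of Saa1 among HA livers, with 481, 129 and 323 FPKM in HA livers, against 93.0, 104 and 92.5 FPKM in PBS livers. Its groups did not overlap and it did not pass (limma adjusted p = 0.143). The fibrinogen chains Fga, Fgb and Fgg had log2 fold changes of 0.59, 0.61 and 0.57, with HA replicate 1 the highest liver for each, and did not pass (limma adjusted p = 0.292, 0.181 and 0.240). Crp, a minor reactant in mice, averaged 238 ± 43.7 FPKM with HA and 243 ± 9.95 FPKM with PBS (SD, n = 3 each; limma adjusted p = 0.895).

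**Figure D3:**
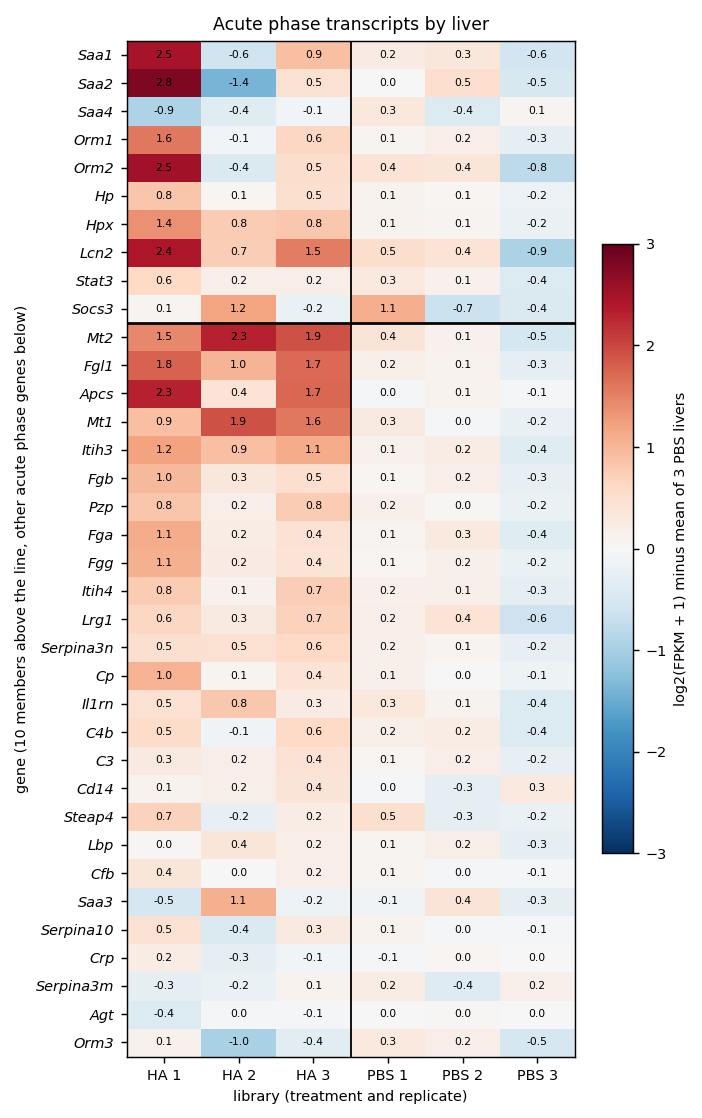
Log2(FPKM + 1) minus the mean of the 3 PBS livers (colour and printed value) for the 10 genes (above the line) and 26 other acute phase genes (below), with the HA livers on the left and the PBS livers on the right. Hamp is left out because its values lie far below the colour scale. HA 1 holds the highest value for 8 of the 10 genes, whereas Mt1, Mt2 and Saa3 are highest in HA 2.

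Plasma proteins that fall in a classic acute phase response had positive log2 fold changes in 6 cases and negative ones in 4. Of these 10, 0 were called in either direction, against 0.289% higher and 0.512% lower of all genes (limma; 5 at an unadjusted p under 0.05; voom also 0). Of these, 4 were higher without overlap, beside 6.47% of all genes tested, 1 was lower, and the median was 0.16. Albumin (Alb) averaged 67632 ± 5860 FPKM with HA and 41433 ± 5692 FPKM with PBS (SD, n = 3 each; limma adjusted p = 0.0864). Apoa1, the main protein of high density lipoprotein, averaged 10588 ± 1639 and Ahsg 5939 ± 571 FPKM in HA livers, against 6237 ± 284 and 4288 ± 80.5 FPKM in PBS livers (limma adjusted p = 0.0688 and 0.119). Apoa2 was the member lower without overlap, at 4763 ± 129 FPKM with HA and 6938 ± 652 FPKM with PBS (limma adjusted p = 0.0894). Without HA replicate 2, Apoa1 passed (adjusted p = 0.0369).

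Upstream of the acute phase genes, 0 genes passed in any of the 5 lists tested. Among all genes tested, 0.289% were called higher and 0.512% lower. Counts at an unadjusted p under 0.05 stand beside 17.7% of all genes tested. Of 19 IL6 family ligands, receptors and kinases, 13 were tested, 3 had an unadjusted p under 0.05 and the median was 0.10. Of the 13, 4 were higher without overlap and 1 lower, beside 6.47% and 19.2% of all genes tested. Il6 and Clcf1 were below the filter, and Il11, Lif, Osm and Il22 had no row under these symbols in the deposited table. Il6 itself was at 0.0445, 0.0229 and 0.185 FPKM in HA livers, against 0.0224, 0 and 0.0229 FPKM in PBS livers. Il6st, which encodes gp130, averaged 11.6 ± 2.25 FPKM with HA and 15.3 ± 1.27 FPKM with PBS (SD, n = 3 each; limma adjusted p = 0.228). Lepr, the leptin receptor, had 0.868, 3.22 and 0.494 FPKM in HA livers, against 0.234, 0.109 and 0.171 FPKM in PBS livers, and Osmr, a receptor of oncostatin M, 0.669, 1.42 and 0.656 against 0.505, 0.406 and 0.492 FPKM, both without overlap and highest in HA replicate 2 (limma adjusted p = 0.218 and 0.286). Without HA replicate 2 the log2 fold change of Lepr moved to 0.51, against 0.96 with all libraries, and that of Osmr to 0.18, against 0.36. Adam10, a protease that sheds receptors, had a log2 fold change of 0.25 (limma adjusted p = 0.250).

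Of 16 genes of JAK-STAT feedback and other STATs, 15 were tested, 2 had an unadjusted p under 0.05 and the median was -0.01. Of the 15, 1 was higher without overlap and 3 lower. Stat5a averaged 1.97 ± 0.221 FPKM with HA and 3.07 ± 0.437 FPKM with PBS (SD, n = 3 each), lower without overlap (limma adjusted p = 0.119). Cish, a STAT5 target, and Ptpn11, a phosphatase of gp130 signalling, had log2 fold changes of -0.69 and -0.23 (limma adjusted p = 0.366 and 0.347), and Cish ran from -1.07 without PBS replicate 2 to -0.41 without PBS replicate 3. Of 15 early STAT3 targets, 14 were tested, 2 had an unadjusted p under 0.05 and the median was -0.01. Of the 14, 1 was higher without overlap and 2 lower. Bcl3, a partner of NF-kB, averaged 6.47 ± 1.85 FPKM with HA and 11.1 ± 2.05 FPKM with PBS, lower without overlap, and the adhesion molecule Icam1 4.66 ± 0.438 and 2.83 ± 0.779 FPKM, higher without overlap (limma adjusted p = 0.131 and 0.132). Bcl2l1 and Gadd45g had log2 fold changes of -0.34 and -0.66 (limma adjusted p = 0.292 and 0.408). They were -0.19 for Bcl2l1 without PBS replicate 1 and -0.17 for Gadd45g without HA replicate 3.

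Of 21 genes of IL1, TNF and NF-kB signalling, 17 were tested, 0 had an unadjusted p under 0.05 and the median was 0.06. Of the 17, 0 were higher without overlap and 2 lower. Cxcl1, a neutrophil attractant, had 19.6, 18.5 and 12.9 FPKM in HA livers, against 20.7, 6.24 and 4.22 FPKM in PBS livers (limma adjusted p = 0.362). PBS replicate 1 was the highest of the 6 for Cxcl1, as it was among the PBS livers for Socs3, and without it the log2 fold change was 1.53, against 0.92 with all libraries and 0.50 without PBS replicate 3. Ikbkb, Myd88 and Irak1 had log2 fold changes of -0.19, -0.27 and -0.18, that of Myd88 being -0.14 without PBS replicate 2. Of 10 hepatocyte transcription factors that control these genes, 9 had a negative log2 fold change, 3 were lower without overlap, 4 had an unadjusted p under 0.05 and the median was -0.27. Cebpa, which encodes C/EBP alpha, had 110, 140 and 130 FPKM in HA livers, against 162, 157 and 160 FPKM in PBS livers (limma adjusted p = 0.195). Ppara, the fatty acid receptor, averaged 25.8 ± 6.91 FPKM with HA and 41.0 ± 6.03 FPKM with PBS (SD, n = 3 each; limma adjusted p = 0.151). Creb3l3, a membrane-bound factor that drives Crp and Apcs, averaged 106 ± 26.0 FPKM with HA and 145 ± 13.8 FPKM with PBS (SD, n = 3 each; limma adjusted p = 0.259), with a log2 fold change of -0.48, or -0.26 without HA replicate 1. The bile acid receptor Nr1h4 had a log2 fold change of -0.43 (limma adjusted p = 0.253). Lower without overlap were 19.2% of all genes tested. With voom on recovered fragments 0 genes of these 5 lists passed.

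**Figure D4:**
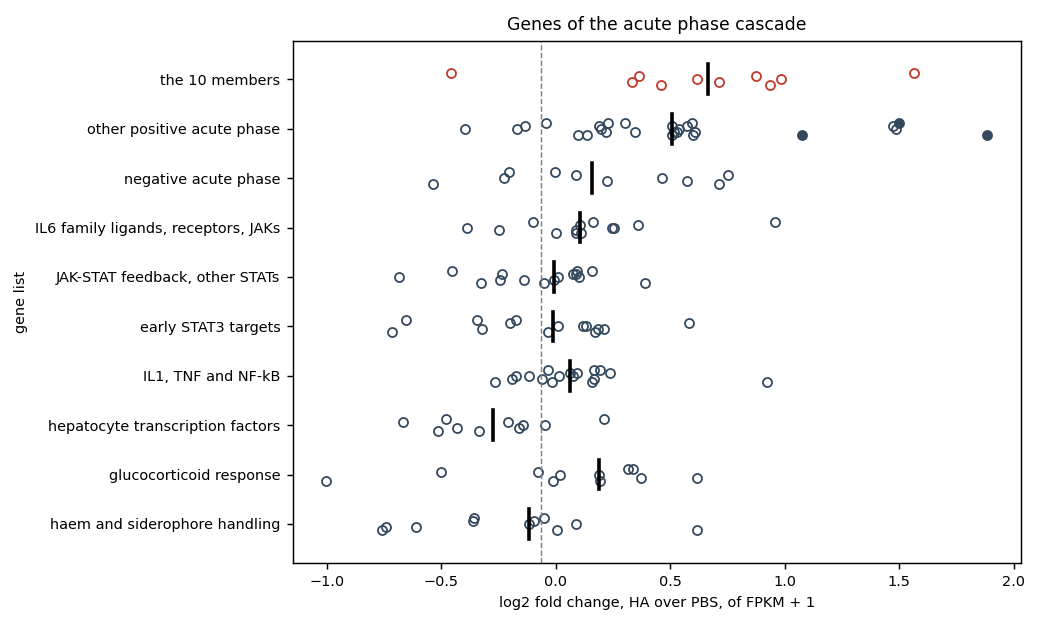
Log2 fold change of HA over PBS (horizontal axis, FPKM + 1) of every tested gene of each list, with 1 circle per gene, filled where it passed limma's threshold, a black bar at the median and a dashed line at the median of all genes tested. Hamp is outside the plotted range and counts in the median of its list. The 3 filled circles are Itih3, Fgl1 and Mt2; the lists upstream of the acute phase proteins have medians from -0.27 to 0.10.

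Of 11 genes of the glucocorticoid response, which acts with IL6 on acute phase genes, 0 passed and 0 had an unadjusted p under 0.05 with limma (voom also 0), with a median of 0.19. Sgk1, Per1, Pck1 and Dusp1 had log2 fold changes of 0.61, 0.34, 0.37 and -1.004 (limma adjusted p = 0.363, 0.397, 0.438 and 0.383), and all 4 overlapped. Leaving out 1 library moved Sgk1 to 0.23 (HA replicate 1), Dusp1 to -0.34 (HA replicate 2), Per1 to 0.55 (PBS replicate 2) and Pck1 to 0.17 (PBS replicate 1) or 0.60 (PBS replicate 2). Of 12 genes that handle haem, iron stores and siderophores, 11 were tested, 0 passed (4 at an unadjusted p under 0.05; voom also 0), 3 were lower without overlap and the median was -0.12. Beside these counts, 17.7% of all genes tested had an unadjusted p under 0.05 and 19.2% were lower without overlap. Ftl1, the ferritin light chain, averaged 2005 ± 256 FPKM with HA and 3338 ± 173 FPKM with PBS (SD, n = 3 each; limma adjusted p = 0.0555), and passed without HA replicate 2 (adjusted p = 0.0298) and without the variance trend (adjusted p = 0.0429). Blvrb, a biliverdin reductase, averaged 74.8 ± 6.78 FPKM with HA and 115 ± 8.82 FPKM with PBS (limma adjusted p = 0.0645). Fth1, the ferritin heavy chain, and Alas1, which starts haem synthesis, had log2 fold changes of -0.36 and -0.76 (limma adjusted p = 0.219 and 0.192). Hmox1, which breaks down the haem that Hpx delivers, had 12.3, 8.10 and 10.6 FPKM in HA livers, against 10.7, 11.3 and 8.73 FPKM in PBS livers (limma adjusted p = 0.992).

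The 10 markers of Kupffer cells, the resident macrophages of the liver, summed to 220, 159 and 282 FPKM in HA livers, against 152, 172 and 156 FPKM in PBS livers. All 10 had a positive log2 fold change, 0 passed (3 at an unadjusted p under 0.05; voom also 0; 1 each without HA replicate 2 or PBS replicate 3), and Marco was higher without overlap. Their sum was highest in HA replicate 3, while 7 of the 8 acute phase proteins, all but Saa4, were highest in HA replicate 1, and their part in the results was not tested. The 9 hepatocyte markers summed to 91912, 79826 and 89921 FPKM in HA livers, against 55241, 52188 and 64587 FPKM in PBS livers. Alb, at means of 67632 FPKM with HA and 41433 FPKM with PBS, made up most of the sum. The median log2 fold change of the 9 was -0.13, with 4 positive and 5 negative, and 0 passed (2 at an unadjusted p under 0.05; voom also 0; 1 without HA replicate 2). Alb and Apoa1 were higher without overlap and Asgr1 was lower. Among all genes tested, 0.289% were called higher, 0.512% lower, and 17.7% had an unadjusted p under 0.05. A positive log2 fold change was found in 37.2%, and 6.47% were higher and 19.2% lower without overlap.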

How the data were processed

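The authors deposited 1 table of FPKM values for 16638 genes in 6 liver libraries and no unit in the header; the values gave it. Samples were grouped by their treatment label. Per the submitters' processing notes, reads went through Trimmomatic and HISAT2 on GRCm39; versions, counter, annotation and strand setting are not stated there. Per the labels' protocols, kits named are VAHTS Universal V6 and TruSeq Stranded Total, with no word on which library used which. Library totals and whole fragments were recovered from ratios of FPKM values, and 100% of values came out whole within 0.0001.

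The 10745 genes averaging 0.5 FPKM or more entered a limma fit (version 3.58.1, R 4.3.3) of log2(FPKM + 1) on treatment alone, with a variance trend. Two-sided p-values received the Benjamini-Hochberg adjustment across these genes, with a threshold of 0.05. The log2 scale understates the change of low genes. The model was tested on simulated data. The 10 members, 9 other gene lists and 5 marker lists were chosen with earlier results of these data known; lists are described by counts and medians only. Named were the members; from each of the 9 lists the genes past the threshold, or the 4 of smallest unadjusted p; and the 5 genes closest to Saa1 and to Lcn2 among those averaging 1 FPKM or more, leaving out unnamed models. A gene that this rule would name is not reported here. Saa3, Orm3, Apcs, Fga, Fgb, Fgg, Crp, Il6, Hmox1 and the named markers were picked after their values were seen. Alternatives were a pseudocount of 0.1, no filter, a filter at a mean of 1 FPKM, no variance trend, median centring, rescaling outside Alb, voom on recovered fragments, a replicate block and leaving out each library.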

Additional observations from a re-analysis of the deposited data

How the results depend on the processing

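None of the 10 genes passed the threshold under any of the 14 alternatives. Over the 8 alternatives that kept all 6 libraries, none changed direction. The 2 filter settings, the fit without variance trend and the replicate block could not show a change. They leave every log2 fold change as it is in this balanced design. With each library left out in turn, the log2 fold change of Saa2 ran from -0.47 to 1.63, of Saa1 and Saa2 summed from -0.026 to 1.69 and of Socs3 from -0.048 to 0.90; of the genes that followed Saa1, Pmvk ran from -0.032 to 1.21 and Rdh11 from -0.041 to 1.33. The negative values came without HA replicate 1, and for Socs3 without HA replicate 2. The other members and the sum of Orm1 and Orm2 kept their direction. Fgl1, Mt2 and Itih3 were not called with no filter or with the replicate block (adjusted p from 0.0858 to 0.119), nor Itih3 with voom (0.0505). The number of genes called moved more. Leaving out a library gave 1 to 46 genes higher and 4 to 69 lower. With no filter 7 were higher and 10 lower. Genes called lower were 32 after median centring and 24 outside Alb.

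With the replicate number as a block, 7 genes were higher and 9 lower, and 0 of the 10 members passed (adjusted p = 0.120 for Hpx and 0.201 for Lcn2). The labels do not say whether the numbers pair the samples. Deviations of same-numbered libraries correlated at -0.14, -0.13 and 0.18 across genes, and those of differently numbered libraries at -0.13 to 0.22. Whether same-numbered samples were handled together was not tested. The cause of the shifts between settings was not tested either. With 3 libraries per group the spread between libraries, not counting error, limits the precision, and part of that spread may be technical.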
